A study of Mus musculus with 4 samples.

Results

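The genes described here encode the NF-kappaB subunits, their inhibitors and 1 activating kinase, and were chosen by symbol: Nfkb1, Nfkb2, Rela, Relb and Rel for the subunits, Nfkbia, Nfkbib and Nfkbie for the cytoplasmic inhibitors, Nfkbiz for the nuclear protein IkappaB-zeta, and Ikbkb for the kinase IKKbeta. All 10 were found among the 50593 genes listed. Their RNA levels were compared in sciatic nerve, the main peripheral nerve of the hind limb, in animals of strain 129S1/SvImJ at 6 months of age, HSF V30M against HSF WT. HSF V30M mice lacked the endogenous Ttr gene, carried a transgene for human TTR V30M and were heterozygous for an Hsf1 deletion, while HSF WT mice had the same heterozygous Hsf1 deletion and no transgene. The promoter of the transgene was not given in the sources used here. The labels listed 2 mice per group, whereas the methods gave n = 4 for the sequencing and left unsaid if that counts 1 group or both. For each gene and group 1 FPKM value was deposited (fragments per kilobase of transcript, scaled to depth, and so a level per length), estimated over all libraries of the group, so that no spread between mice could be given and no test between groups was made.

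NF-kappaB is a family of dimeric transcription factors that wait in the cytoplasm, bound by inhibitors of the IkappaB family. In the canonical route, receptors such as TLR4 and the TNF receptor activate the IKK kinase complex, which marks IkappaB-alpha for destruction and lets RelA:p50 dimers enter the nucleus; in the noncanonical route the p100 precursor, made from Nfkb2, is processed to p52, which pairs with RelB. Several of the pathway's own inhibitors are also its target genes, which gives it negative feedback, and in nerve it is known for its part in the response of Schwann cells and macrophages to injury. The study asked whether the chemokine response is impaired in nerves of this model and examined TLR4 in cultured Schwann cells; the values below concern the nerve alone.

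The group labels could be checked only in part. Mouse Ttr, absent by design from the HSF V30M mice, was at 6.10 FPKM in the group labelled HSF V30M (129 to 151 estimated fragments) and stood at 0 in that labelled HSF WT, where 3 fragments would give 0.197 FPKM. All reads were aligned to the mouse genome, while HSF V30M mice carried human TTR. Whether these fragments came from the mouse gene or from the transgene was not tested, so that Ttr does not settle the labels. HSF V30M and HSF WT stand below for the groups so labelled. Hsf1, heterozygously deleted in both groups by design, was at 7.94 FPKM in HSF V30M and 15.0 FPKM in HSF WT. These rested on 299 to 379 and 407 to 587 estimated fragments. Its log2 ratio of -0.836, as defined below, was past the 1.5-fold mark and lower in HSF V30M. The source of this gap was not tested. The nerve identity was clear, since the Schwann cell myelin genes Mbp and Pmp22 were at 3854 and 2252 FPKM in HSF V30M and at 3441 and 2440 FPKM in HSF WT. Ratios below are log2((HSF V30M + 1) / (HSF WT + 1)) unless an FPKM ratio is named, and a gene was counted as past the fold when this ratio exceeded 1.5-fold and it was expressed, meaning a mean of 1 FPKM or more over both groups. Over the 15620 expressed genes, the median log2 ratio was 0.003 and the middle quartiles ran from -0.219 to 0.234. Intervals are 95% and cover counting error only, from the lowest estimate of the fragments behind each value.

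Because NF-kappaB binds kappaB elements, also upstream of its own family genes, the promoters of the members are shown with the matches to the kappaB consensus in capitals. RefSeq windows (GRCm38.p6, from 250 bases before to 50 after the start) were given for 6 of the 10 members, and those of 4 held a match on either strand: Nfkbia, Nfkbie, Rel and Nfkb2. Over all promoters given, 2779 of 32851 windows (8.46%) held one. The windows of Rela and Nfkbib held none, and those of Nfkb1, Relb, Nfkbiz and Ikbkb were not analysed here. The 250 bases before the start of Nfkbia, Nfkbie and Rel, in the direction of transcription, were as follows.
Nfkbia (chr12:55492648-55492897, minus strand): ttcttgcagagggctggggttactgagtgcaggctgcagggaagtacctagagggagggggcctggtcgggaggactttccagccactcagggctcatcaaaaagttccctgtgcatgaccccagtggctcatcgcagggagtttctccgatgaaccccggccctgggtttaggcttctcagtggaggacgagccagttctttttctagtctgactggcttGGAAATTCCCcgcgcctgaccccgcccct
Nfkbie (chr17:45555450-45555699, plus strand): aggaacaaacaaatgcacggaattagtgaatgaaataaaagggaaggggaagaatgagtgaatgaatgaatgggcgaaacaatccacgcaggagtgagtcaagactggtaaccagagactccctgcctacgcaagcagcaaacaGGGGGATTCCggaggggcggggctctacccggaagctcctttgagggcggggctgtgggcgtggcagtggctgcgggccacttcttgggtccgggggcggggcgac
Rel (chr11:23770970-23771219, minus strand): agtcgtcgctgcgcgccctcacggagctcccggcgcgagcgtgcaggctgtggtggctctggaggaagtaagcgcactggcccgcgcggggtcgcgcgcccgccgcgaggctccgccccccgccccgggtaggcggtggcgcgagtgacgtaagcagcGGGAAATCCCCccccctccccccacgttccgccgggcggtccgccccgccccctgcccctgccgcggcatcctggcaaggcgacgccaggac
In Nfkbia the match lay 29 to 20 bases before the start, in Nfkbie 106 to 97 bases before it, and in Rel a run of 11 bases, holding 3 overlapping matches, lay 92 to 82 bases before it. Nfkb2 had 3 annotated starts. Before the first of these stood the run GGGAATTCCCC (chr19:46304698-46304708, plus strand), with 3 overlapping matches, and GGGGCTTTCC (chr19:46304726-46304735), both inside an annotated Nfkb2 exon. The windows of the other Nfkb2 starts also held matches. GGAATGTCCC (chr19:46305459-46305468) stood before the second start, outside annotated Nfkb2 exons. GGGACTTTCC (chr19:46305705-46305714) stood after the second start and before the third. All these matches describe the letters of the windows and are not evidence of binding.

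The 10 genes covered a wide range of levels, from Nfkbia as the highest to Rel as the lowest in both groups (plot of FPKM by gene). In HSF V30M the order was Nfkbia, Rela, Nfkb1, Ikbkb, Nfkbib, Relb, Nfkb2, Nfkbiz, Nfkbie and Rel, and in HSF WT it was the same but for Nfkb2 standing before Relb. Of the 9 neighbouring pairs in this order, 2 had overlapping counting intervals in HSF V30M (Nfkbib with Relb and Nfkbiz with Nfkbie). In HSF WT there were 4, namely Nfkb1 with Ikbkb, Nfkb2 with Relb, Relb with Nfkbiz, and Nfkbiz with Nfkbie. All 10 members were expressed by this definition.

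**Figure D1:**
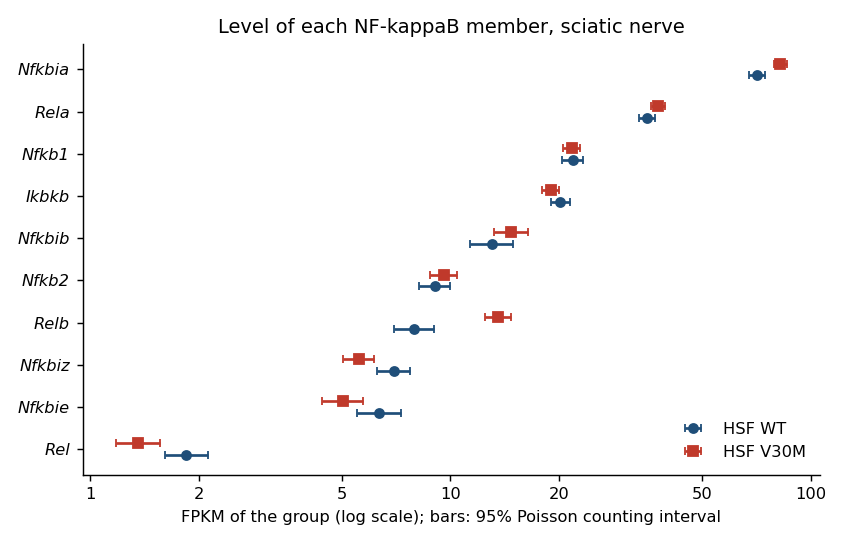
FPKM of each member in HSF V30M (red squares) and HSF WT (blue circles) on a log axis, with 95% Poisson intervals for counting error only. Nfkbia lies highest, at 82.3 and 70.7 FPKM, Rel lowest, at 1.36 and 1.85 FPKM, and the markers of Relb are the farthest apart.

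Of the 10 members, 1 was past the 1.5-fold mark and higher in HSF V30M (Relb), 0 were past it and lower, and 9 were past neither. Among all expressed genes, 8.22% were past the mark and higher and 8.44% past it and lower, so that 1 of 10 and 0 of 10 are near the shares over all genes. With a fold of 2, no member was past the mark in either direction, against 3.98% higher and 3.94% lower among all genes. When a mean of at least 5 FPKM was required, 9 members remained and Relb was again the one past the mark, against 7.17% higher and 6.33% lower. The median log2 ratio of the members was 0.031, with 5 ratios above 0 and 5 below, and 6 members lay within the middle quartiles of all genes.

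**Figure D2:**
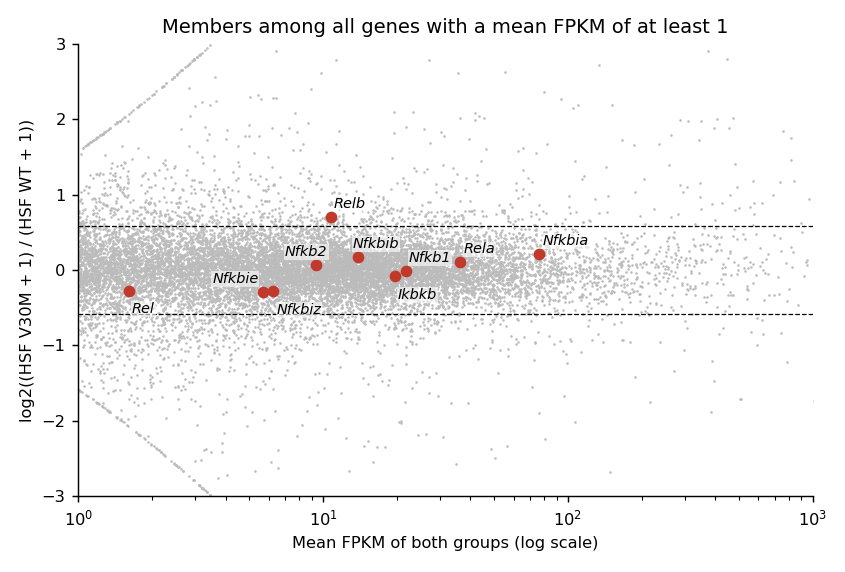
log2 ratio (HSF V30M over HSF WT, each plus 1) against the mean FPKM of both groups on a log axis, for all expressed genes (mean of 1 FPKM or more, grey) and the 10 members (red). Dashed lines mark the 1.5-fold change; 526 of the 15620 genes fall outside the axes. Relb, at 0.70, lies above the upper line and the other 9 members lie between the lines.

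Among the subunits, the transactivating partners did not all lie on 1 side. Gene positions given with each member are those of GENCODE M21 on GRCm38. Relb (chr7:19606217-19629438, minus strand), the partner of p52 in the noncanonical route, was at 13.5 FPKM in HSF V30M (12.5 to 14.7) and 7.92 FPKM in HSF WT (6.96 to 8.98), an FPKM ratio of 1.71 with a counting interval of 1.47 to 1.99. The groups did not overlap in their counting intervals, and the lower bound of the ratio fell just below the 1.5-fold mark. These values rested on 578 to 682 estimated fragments in HSF V30M and 244 to 328 in HSF WT. Rela (chr19:5637483-5648130, plus strand), the canonical p65 subunit, was the most abundant, at 37.7 FPKM in HSF V30M and 35.1 FPKM in HSF WT, and its ratio of 1.07 (1.002 to 1.15) left out 1 only barely. Rel (chr11:23736847-23770970, minus strand), the c-Rel subunit best known from lymphocytes, was at 1.36 FPKM in HSF V30M and 1.85 FPKM in HSF WT, a ratio of 0.736 (0.604 to 0.896) that stayed within the 1.5-fold mark on the log2 scale, at -0.27.

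The precursors of the DNA-binding subunits were close to equal between the groups. Nfkb1 (chr3:135584655-135691547, minus strand), which encodes p105 and its product p50, was at 21.7 FPKM in HSF V30M and 21.8 FPKM in HSF WT (ratio 0.994, interval 0.913 to 1.08). Nfkb2 (chr19:46304320-46312385, plus strand), which encodes p100 and p52, was at 9.57 FPKM in HSF V30M and 9.07 FPKM in HSF WT (ratio 1.06, interval 0.926 to 1.20). Both intervals span 1, and counting error alone would allow Nfkb2 to be up to 1.20-fold higher. The annotated exons of Nfkb2 share 299 bases with Psd, a gene on the opposite strand at 0.68 and 0.470 FPKM, and 531 bases with the lncRNA AC114539.1, and how the counting used the strand was not given in the sources used here.

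As shares of the summed subunit FPKM, Rela made up 45.0% in HSF V30M and 46.3% in HSF WT, Nfkb1 25.9% and 28.8%, and Nfkb2 11.41% and 11.97%. Relb made up 16.1% in HSF V30M and 10.5% in HSF WT, and Rel 1.62% and 2.44%. The ratio of Relb to Nfkb2, the noncanonical pair, came to 1.42 for HSF V30M and 0.874 for HSF WT, whereas that of Rela to Nfkb1, the canonical pair, came to 1.74 and 1.61. The 5 subunits summed to 83.9 FPKM in HSF V30M and 75.8 FPKM in HSF WT, and Relb alone accounts for most of this gap. These are levels of RNA, and nothing was measured of processing to p50 or p52 or of entry into the nucleus.

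The cytoplasmic inhibitors did not move together. Nfkbia (chr12:55489410-55492647, minus strand), which encodes IkappaB-alpha, the fast-resynthesised inhibitor of RelA:p50, was at 82.3 FPKM in HSF V30M (79.1 to 85.7) and 70.7 FPKM in HSF WT (67.2 to 74.4), a ratio of 1.17 (1.09 to 1.24). Its promoter is shown above with 1 kappaB match. Nfkbib (chr7:28758251-28767512, minus strand), encoding IkappaB-beta, was at 14.8 FPKM in HSF V30M and 13.0 FPKM in HSF WT (ratio 1.13, interval 0.951 to 1.36). Nfkbie (chr17:45555703-45563169, plus strand), encoding IkappaB-epsilon, was at 5.02 FPKM in HSF V30M and 6.35 FPKM in HSF WT (ratio 0.791, interval 0.653 to 0.958). Thus Nfkbia was higher and Nfkbie lower in HSF V30M beyond counting error, both by less than 1.5-fold, and the interval of Nfkbib spans 1. The exons of Nfkbib share 314 bases with Ccer2, at 0.65 and 0.152 FPKM, and 42 bases with Sirt2, a far more abundant gene at 180.0 and 161 FPKM, both on the opposite strand.

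Summed, the 3 cytoplasmic inhibitors were at 102 FPKM in HSF V30M and 90.0 FPKM in HSF WT, and Nfkbia gave 80.6% and 78.5% of the sum. The ratio of inhibitor to subunit RNA came to 1.22 for HSF V30M and 1.19 for HSF WT, and that of Nfkbia to Rela was 2.18 and 2.01. Nfkbiz (chr16:55811375-55838899, minus strand), whose product IkappaB-zeta acts in the nucleus as a cofactor of p50 on secondary response genes, was at 5.56 FPKM in HSF V30M and 6.97 FPKM in HSF WT (ratio 0.798, interval 0.691 to 0.921). Ikbkb (chr8:22659212-22706589, minus strand), the catalytic subunit of the IKK complex in the canonical route, was at 19.0 FPKM in HSF V30M and 20.2 FPKM in HSF WT (ratio 0.943, interval 0.869 to 1.02). With fragments estimated from basic coding transcripts, the counting interval left out a ratio of 1 in 6 members and spanned it in 4. Of the 6, Relb, Nfkbia and Rela were higher and Rel, Nfkbie and Nfkbiz lower in HSF V30M. Since these intervals hold no variation between mice, they do not show that the groups of mice differ.

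**Figure D3:**
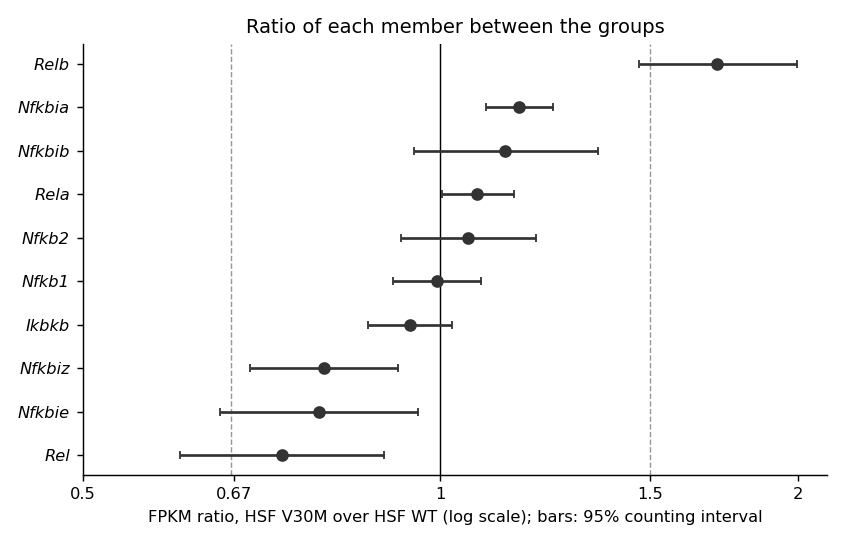
FPKM ratio of HSF V30M over HSF WT for each member on a log axis, with 95% intervals for counting error only; dashed lines mark 1.5-fold changes. The interval of Relb, from 1.47 to 1.99, reaches across the upper line, and those of Nfkbib, Nfkb2, Nfkb1 and Ikbkb span 1.

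Of the members with a promoter window, the 4 with a kappaB match had log2 ratios from -0.288 to 0.217 (median -0.101) and the 2 without one were at 0.10 (Rela) and 0.17 (Nfkbib). Relb had no window here. In the other pathway genes, kappaB matches were found in the windows of 5 of 10 negative feedback genes (50%) and 9 of 19 classical targets (47.4%). They were also found in 2 of 7 other IkappaB-family and turnover genes (28.6%) and 2 of 10 receptors (20%). Of the adaptors and ligases 3 of 17 (17.6%) held one, and of the kinase list 1 of 8 (12.5%). Among all genes with a window, 2581 of 27025 (9.55%) held one. The median log2 ratio was -0.086 over the 16 expressed pathway genes with a match and 0.026 over the 42 without one.

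The other genes of the pathway were read from 6 lists with 90 genes, of which 76 were expressed. Of these, 4 (5.26%) were past the 1.5-fold mark and higher in HSF V30M, 6 (7.89%) past it and lower, and 66 past neither, with a median log2 ratio of -0.007. The kinase list, with the IKK complex and the kinases that activate it, had 0 of 10 past the mark and a median of 0.083. Its most abundant genes were Tab2, a TAK1-binding adaptor (44.8 FPKM in HSF V30M and 35.9 in HSF WT), Ikbkg, the scaffold subunit NEMO (30.6 and 24.2), Map3k7, which encodes TAK1 (29.1 and 20.9), and Tbk1, an IKK-related kinase (14.9 and 13.5). Other IkappaB-family and turnover genes also had 0 of 8 past the mark, among them Commd1 (49.2 and 38.5 FPKM), Fbxw11 (21.0 and 16.4), Nkiras2 (10.8 and 11.0) and Bcl3, a nuclear partner of p50 and p52 (9.93 and 8.15).

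Upstream, the receptors had 0 of 13 past the mark and higher and 1 lower. This was Cd40, a noncanonical receptor of B cells and macrophages, at 0.94 FPKM in HSF V30M and 2.03 FPKM in HSF WT, with an FPKM ratio interval of 0.177 to 1.15 that spans 1. The most abundant receptors were Tnfrsf1a (41.5 FPKM in HSF V30M and 37.5 in HSF WT), Ngfr (32.7 and 39.97), Ltbr, a noncanonical receptor (25.4 and 20.7), and Cd14, a TLR4 co-receptor (8.98 and 12.3). Tlr4 itself, named for its place in the study after its values were seen, was at 8.70 FPKM in HSF V30M and 8.57 FPKM in HSF WT, an FPKM ratio interval of 0.852 to 1.21. Among 21 adaptors and ligases, Card10, a CARMA scaffold of non-lymphoid cells, was past the mark and higher (9.86 FPKM in HSF V30M against 5.77 in HSF WT, FPKM ratio interval 1.48 to 1.98). The abundant adaptors Rbck1 (63.6 and 51.6 FPKM), Irak1 (36.2 and 37.3), Irak2 (16.5 and 16.2) and Sharpin (15.9 and 12.4) stayed within the mark.

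Downstream, 1 of 11 negative feedback genes was past the mark: Tnfaip3, which encodes the ubiquitin-editing enzyme A20, at 8.86 FPKM in HSF V30M and 5.49 FPKM in HSF WT (FPKM ratio interval 1.42 to 1.84). Tax1bp1 (31.6 and 37.0 FPKM), Rnf11 (26.3 and 20.8), Itch (22.1 and 25.3) and Tnip1 (21.3 and 26.3) were not. Among the 13 expressed classical target genes, 2 were past the mark and higher, the iron-binding acute phase gene Lcn2 (8.20 FPKM in HSF V30M against 3.42 in HSF WT) and the monocyte chemokine Ccl2 (13.1 against 7.91). Another 4 were past it and lower: the growth factor Csf1 (22.2 against 36.1 FPKM), the protease Mmp9 (5.12 against 8.37), the adhesion molecule Vcam1 (4.30 against 8.45) and the chemokine Ccl5 (0.87 against 4.59). Bcl2l1 (76.3 and 70.5 FPKM), Ier3 (20.1 and 14.8), Icam1 (16.6 and 16.3) and Sod2 (12.2 and 12.9) stayed within the mark, and the median of the list was -0.070, which turned to 0.068 with a minimum mean of 5 FPKM and to 0.049 with none. Classical targets were thus found in both directions. Ccl20 was listed at 0 in both groups, Saa3 in HSF V30M and Csf2 in HSF WT, all named after their values were seen.

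**Figure D4:**
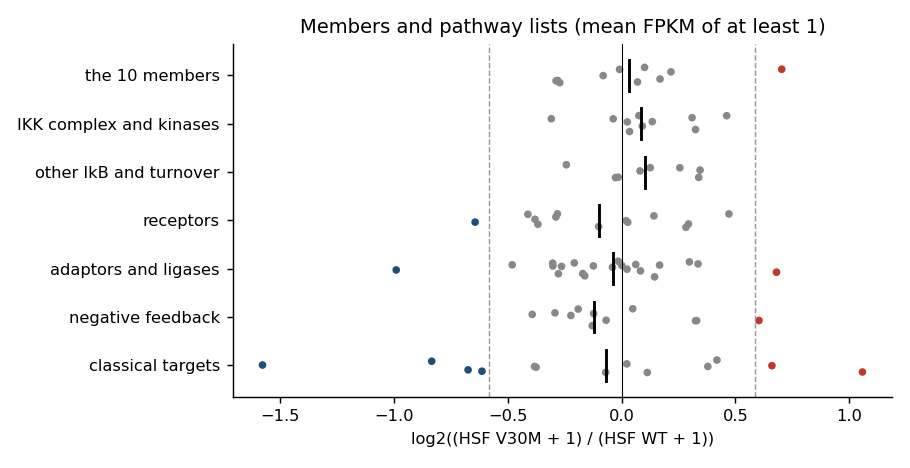
log2 ratio (HSF V30M over HSF WT, each plus 1) of the 10 members and of the expressed genes of 6 pathway lists; each point is a gene, black bars are medians, dashed lines mark 1.5-fold, and colour marks genes past it (red higher, blue lower). The members centre on 0.031 with Relb alone past a line, while the classical targets spread from -1.58 to 1.06.

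Markers of several cell types also differed between the groups, and in whole nerve fewer cells of a type and less RNA per cell cannot be told apart. Beside the lower Rel and Cd40, 6 of 6 expressed B cell markers were past the mark and lower in HSF V30M, with a list sum of 5.31 FPKM against 36.7 FPKM in HSF WT (Cd22 1.26 and 8.49, Cd79a 0.65 and 7.10, Cd79b 0.53 and 7.16). Of 6 T cell markers, 5 were past it and lower, the exception being Thy1 (44.2 and 40.5 FPKM), and the list sum was 49.0 against 59.8 FPKM. Thy1 made up most of that sum, and the other 8 T cell markers summed to 4.82 FPKM in HSF V30M and 19.3 FPKM in HSF WT. Macrophage markers had 2 of 9 lower, with sums of 102 and 135 FPKM, and dendritic cell markers, a cell type in which Relb is known to be prominent, had 1 of 5 lower, with sums of 13.6 and 20.3 FPKM.

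Beside the higher Relb, Card10, Tnfaip3, Lcn2 and Ccl2, 5 of 6 neutrophil markers were past the mark and higher in HSF V30M and 1 lower (sums of 103 and 29.8 FPKM), as were 3 of 4 erythrocyte markers (138 and 45.3 FPKM, with Epb42 listed at 0 in HSF WT), 2 of 8 endothelial markers (361 and 279 FPKM) and 2 of 6 neuron markers (107 and 52.9 FPKM). Skeletal muscle markers were lower in 7 of 7 (sums of 45.8 and 169 FPKM) and adipocyte markers in 3 of 7 (2501 and 3412 FPKM). The Schwann cell list had 1 of 12 past the mark, higher, with sums of 13050 and 11460 FPKM, and the fibroblast and perineurium list 0 of 8, with sums of 2366 and 2413 FPKM. Apart from Epb42 in HSF WT, no gene of these lists was listed at 0. The part of these cell types in the values of Relb, Rel and the other members was not tested.

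**Figure D5:**
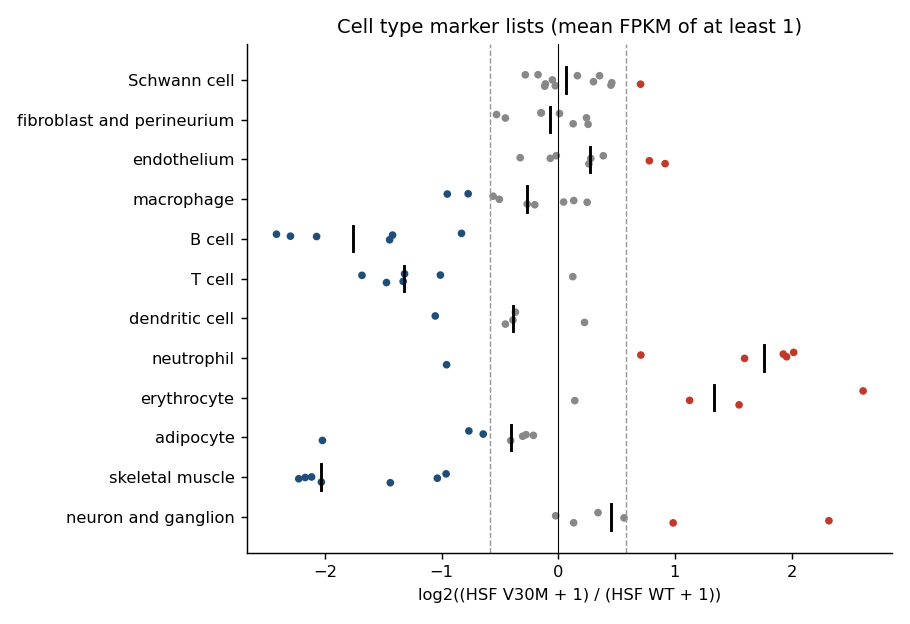
log2 ratio (HSF V30M over HSF WT, each plus 1) of expressed cell type marker genes; each point is a gene, black bars are medians, dashed lines mark 1.5-fold, and colour marks genes past it (red higher, blue lower). B cell and skeletal muscle markers lie wholly on the lower side, with medians of -1.76 and -2.03, neutrophil markers mostly on the higher side, with a median of 1.76, and Schwann cell markers centre on 0.069.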

How the data were processed

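RNA of sciatic nerves from both genotypes was isolated on RNeasy columns, turned into double-stranded cDNA and sequenced by Ion Torrent protocols. The submitters' processing notes name STAR, Cufflinks, Cuffdiff and GRCm38; versions, options, annotation and strand handling were not given in the sources used here. The authors deposited 1 Cuffdiff table with 1 FPKM value per gene and group, written with decimal commas, which were read as points. Its columns of log2 fold change, test statistic, p-value, q-value and significance are the authors' own comparison and were not used. The table names 16278 genes as tested, 34292 as not tested and 23 with too many alignments, which were left out.

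Ratios were log2((HSF V30M + 1) / (HSF WT + 1)), with a pseudocount of 1. Genes with a mean over both groups of 1 FPKM or more and a linear fold over 1.5 on this scale were counted as past the fold. With 1 value per group no test was run, and replicates could not be compared. A fold change on this scale understates that of low genes. The FPKM ratio, as named in the text, has no pseudocount.

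Fragments were estimated from the steps of low FPKM values in single-transcript genes. FPKM times effective kilobases (195 bases subtracted) piled up at 0.040 and 0.047 in HSF V30M and at 0.0486 and 0.0651 in HSF WT. Exactly 2 steps were sought in each group and taken as the worth of 1 fragment in each library. In HSF WT 97.9% of 1311 low values lay within 2% of whole fragments, and in HSF V30M 90.6% of 886 lay within 5%. The latter is a weaker check, since its values are rounded to 2 decimals and the 5% bands around neighbouring sums of fragments overlap. The deeper library of HSF V30M was 1.21-fold deeper than that of HSF WT. Ranges of fragments run over the basic coding transcripts of GENCODE M21 (GRCm38), which holds 50369 of the gene identifiers and lacks 224. Exact Poisson (levels) and exact binomial (ratios) intervals at 95% used the lowest estimate. Total depth per mouse is unknown.

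Members and lists were chosen with earlier results of these data known. Genes named are the members, list genes past the fold, up to 4 others per pathway list and 3 per marker list by level, markers at 0, and genes sharing exons with a member; exceptions are stated, and some genes that this rule covers are not reported here. Alternatives were a pseudocount of 0.1 or none, minimum means of 5 or none, a fold of 2, median-of-ratios scaling (factors 1.0016 and 0.9985) and all annotated transcripts. The scripts ran in Python 3.11.15 with matplotlib 3.10.9, scipy 1.17.1, pandas 2.3.3 and numpy 2.4.6. The search for steps and the fold calls were tested on simulated data. These held neither the rounding of the HSF V30M values nor planted changes near the 1.5-fold mark.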

Additional observations from a re-analysis of the deposited data

How the results depend on the processing

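The ratios of the 10 members kept their direction, and each its side of the 1.5-fold mark, with a pseudocount of 0.1, with none (chosen after seeing the data) and with median-of-ratios scaling. With a fold over 2, Relb was no longer past the mark, which left 0 members, and 1237 genes in all were past it in place of 2603. With a minimum mean of 5, 1378 genes were. The medians of 3 pathway lists, each close to 0, changed sign: with a minimum mean of 5 that of the classical targets went from -0.070 to 0.068, that of the receptors from -0.10 to 0.020 and that of the adaptors from -0.040 to 0.005, and with no minimum mean that of the classical targets went to 0.049. Larger shifts were found in medians of marker lists. The B cell median of -1.76 became -2.56 with a pseudocount of 0.1 and -2.73 with none, and the T cell median of -1.32 became -2.05 and -2.17. With a minimum mean of 5 the T cell median turned to 0.12, since Thy1 alone was left, and the neuron median of 0.45 became 1.65. With no minimum mean the neutrophil median of 1.76 became 1.02 and the erythrocyte median of 1.34 became 0.25, as more low genes entered.

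The lowest fragment estimates in HSF WT fell for 8 of 10 members when every annotated transcript was allowed. Relb fell from 244 to 65, Rela from 1360 to 63, Ikbkb from 1049 to 33, Nfkb2 from 388 to 26 and Nfkbiz from 367 to 0. The counting intervals could thus be much wider than given. They were not computed under this setting, so which members leave out a ratio of 1 holds for basic coding transcripts only. Leaving out a mouse was not possible with 1 value per group. No paired analysis was possible because each group has only 1 value per gene. The depth limits low genes most: Ccl5 rested on 6 to 7 fragments in HSF V30M.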
